A study of Mus musculus with 32 samples.

Results

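Forskolin (FSK) was compared with its vehicle, dimethyl sulfoxide (DMSO), in mouse hippocampal neurons kept in culture, over every gene of a total RNA count table. The comparison takes 10 of the 32 samples of the series, 6 FSK and 4 DMSO libraries chosen by their labels, and 17173 of the 51267 features in the table had enough counts to be tested. The neurons came from hippocampi of newborn pups (P0) and were treated on day 16 in vitro, for 30 minutes, with 50 µM FSK or the same volume of DMSO. The labels give no strain, sex or genotype. They also do not say whether libraries of 1 group came from separate cultures or pooled pups, so p-values measure the spread between these libraries, which may be technical. Another 6 libraries were treated with DHPG, an agonist of metabotropic glutamate receptors. They entered the main fit for the filter on counts, the scaling factors and the estimate of the spread. RNA of a whole culture mixes neurons with glia, and in such bulk samples fewer cells of a type and less RNA per cell cannot be told apart.

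Forskolin is a plant diterpene that activates adenylyl cyclases, the enzymes that make cyclic AMP (cAMP). Cyclic AMP releases the catalytic subunits of protein kinase A, which phosphorylate the transcription factor CREB on promoters that carry a cAMP response element (CRE). In neurons the best-known targets are immediate-early genes, such as Fos and the Nr4a receptors, which can be transcribed without new protein synthesis and are also switched on by synaptic activity. Several of their products switch the signal off again, among them kinase inhibitors, phosphatases, RGS proteins and proteins that speed the decay of mRNA.

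The 10 libraries fell into 2 kinds. In 6 of them, DMSO 2 to 4 and FSK 4 to 6, the mitochondrial ribosomal RNAs mt-Rnr1 and mt-Rnr2 took 10.8% to 27.7% of counts, with totals of 38409761 to 59958357, and these are called the high set. In the other 4, DMSO 1 and FSK 1 to 3, the same RNAs took 1.74% to 2.92%, with totals of 21325909 to 24892774, and these are called the low set. The low set thus has a single DMSO library. Within the high set the share was 10.8% to 18.7% in DMSO and 22.2% to 27.7% in FSK. Within the low set it was 1.74% in DMSO and 2.12% to 2.92% in FSK. In each set every FSK library was thus above DMSO, and neither reading within a set nor a term for the set separates this share from treatment. Libraries FSK 4 and FSK 5 stood apart further: on a principal component that held 43.7% of the variance among the 10 libraries they lay at 83.3 and 85.1, against at most 19.9 in any other. At the other end lay DMSO 1, the single low-set control, at -71.9, with FSK 1 to 3 at -31.9, -47.7 and -36.6. The summed level of 16 microglia markers was 264 and 468 CPM (counts per 1000000 counts of the library) in FSK 4 and FSK 5, 46 to 63 in FSK 1 to 3, 28 in FSK 6 and 25 to 48 in DMSO. Neuron markers were present in every library. The 13 excitatory ones summed to 1363 to 1401 CPM in DMSO and 958 to 1133 CPM in FSK in the high set. In the low set they summed to 1027 CPM in DMSO and 944 to 1011 CPM in FSK. The largest part of these sums was Slc17a7 alone, at 667 to 894 CPM in DMSO and 426 to 644 CPM in FSK. The median log2 fold change of the 13 was -0.05 over all libraries, -0.20 in the high set and 0.25 in the low set. The sum was thus lower in FSK in both sets, while the median was negative in the high set and positive in the low set. The 14 inhibitory markers summed to 1019 to 1633 CPM in DMSO, to 830 and 707 CPM in FSK 4 and FSK 5, and to 1227 to 1483 CPM in the other FSK libraries. Astrocyte markers, 12 in all, summed to 4177 to 6982 CPM in DMSO and 5079 to 7641 CPM in FSK.

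**Figure D1:**
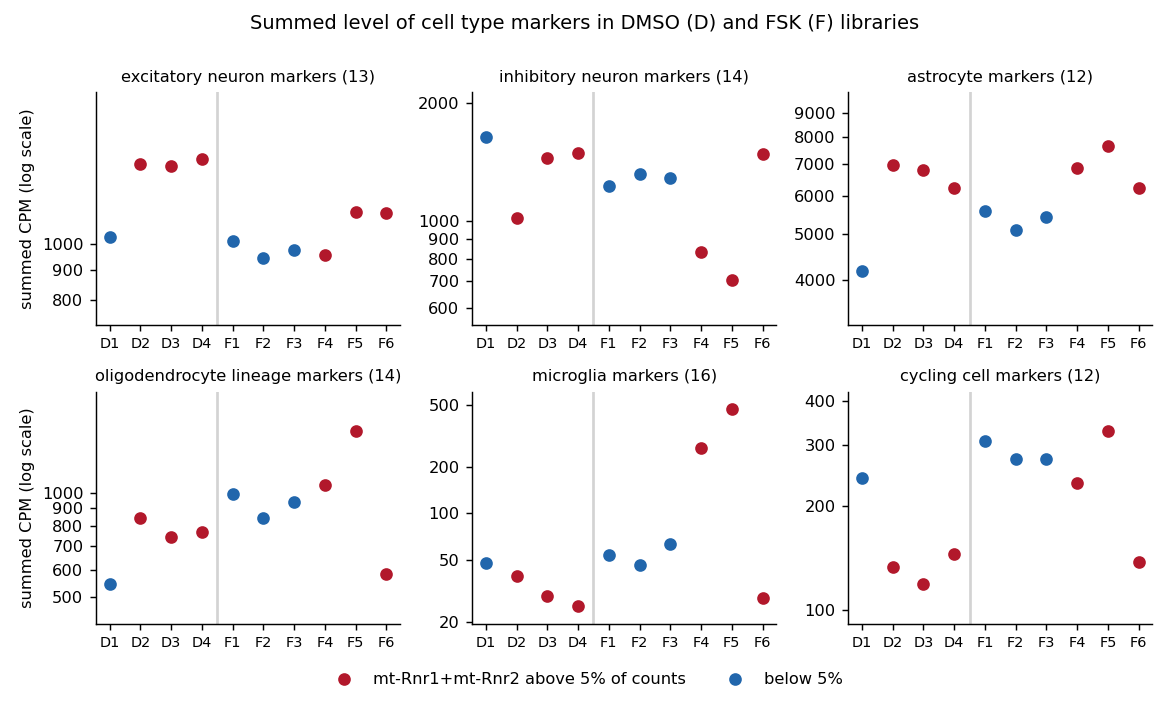
Summed CPM (log scale) of the tested markers of 6 cell types in DMSO 1 to 4 (D1 to D4) and FSK 1 to 6 (F1 to F6), coloured by the share of mt-Rnr1 plus mt-Rnr2; the number of markers is in brackets. Microglia markers reached 264 and 468 CPM in FSK 4 and FSK 5 and at most 63 CPM in every other library.

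FSK raised 60 features, 0.349% of those tested, and lowered 79, 0.46% (edgeR quasi-likelihood test over all libraries, Benjamini-Hochberg adjusted p under 0.05). The higher group held transcription factors of the immediate-early class (Klf4, Fosb, Maff, Fos, Nr4a2, Nr4a1), the signalling regulators Arl4d and Rgs2, the noncoding 1700016P03Rik, and genes for mRNA decay (Btg2, Btg1). Its largest fitted log2 fold changes, 5.47 for Rgs1 and 5.20 for Trh, belonged to genes at under 0.1 CPM in every DMSO library. The lower group held synaptic scaffold and receptor genes (Shank3, Bsn, Grin1, Cnih2) and transcription factors (Foxo6, Nr2f6, Thra), and its changes were smaller, with a median log2 fold change of -0.67 against 1.18 for the higher group. With library totals alone in place of scaling factors the calls were 49 higher and 13 lower. At an unadjusted p under 0.05 the main test had 3658 of the 17173 features. Of the same features DESeq2 called 1276 and limma-voom 6051, both alternative tests. Counts of list members given below for these measures are to be read beside these totals. Every FSK library lay above every DMSO library for 54 of the 60, and below for 79 of the 79. Over all features tested, 3.62% had every FSK library above every DMSO library and 4.36% had every one below.

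A fit with a term for the library set, which lets the high and low libraries start from different levels, called 593 features higher, 3.45%, and 1029 lower, 5.99%. These include all 139 features called without the term. The DHPG libraries, 1 in the high set and 5 in the low set by the same measure, also enter the estimate of that term and so bear on its fold changes. Without FSK 4 and FSK 5 and with the set term, 45 features were higher, 0.269%, and 11 lower, 0.0658%, and 35 of them were among the 139: 33 of the 60 higher and 2 of the 79 lower. The median log2 fold change of the 79 was -0.57 in that fit and -0.67 over all libraries. When each of the 16 libraries in the fit was left out in turn, 11 features passed every time, 10 higher and 1 lower: Arl4d, Rgs2, Fosb, 1700016P03Rik, Trh, Nr4a2, Arc, Maff, Ptgs2 and Gm17971, and the lower Foxo6. The smallest count of calls was 12, without DMSO 3, and the largest 427, without DHPG 6.

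Each of the 139 changes was then read in 3 places: within the high set, within the low set, and in FSK 6 against the 3 DMSO libraries of the high set, which leaves out FSK 4 and FSK 5. The 3 features Rgs1, Gm27028 and Mir1938 had too few counts for the last. All 136 others had the same sign in all 3 places as over all libraries. In 113 the value was also at least 50% of that over all libraries in each place, which is called holding below: 51 of the 60 higher features and 62 of the 79 lower ones. The median of the higher group was 1.29 in the high set, 1.10 in the low set and 0.92 in FSK 6. That of the lower group was -0.83, -0.48 and -0.84, so most of the 23 that did not hold, 16, were lower features whose change in the low set was under 50% of the whole. FSK 6 against those 3 DMSO libraries, on its own, called 78 features higher and 812 lower; with 1 FSK library in that contrast the spread comes from the other groups, FSK 6 is assumed to vary like them, and the calls cannot be told apart from features of that library. The 139 were chosen on these same libraries, so that these shares describe them and test nothing.

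The sets share no library and can also be read side by side, but both contrasts come from 1 fit on all 16 libraries. They share the filter, the scaling factors and the estimate of each gene's spread, which for the low set comes in part from the other groups. A gene of small spread passes more easily in both, so the shares at p under 0.05 below are not independent. Of 738 features called higher within the high set, 628 (85.1%) were positive in the low set, where 50.8% of all features were, and 139 (18.8%) were also at an unadjusted p under 0.05 there, against 6.69% of all features. For the 1286 called lower, 1160 (90.2%) were negative in the low set against 49.2% of all features, and 309 (24.0%) were at p under 0.05 against 6.67%. The low set alone, with 1 DMSO library, called 8 features higher and 0 lower by the same edgeR test, with 1148 and 1145 at an unadjusted p under 0.05. The 8 were Arl4d, Rgs2, Arc, 1700016P03Rik, Fos, Dusp1, Gm38257 and Gm19680. Of these, 7 were also called higher within the high set, and the other, Gm19680, a pseudogene with no count in DMSO 1, was at -0.08 there.

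**Figure D2:**
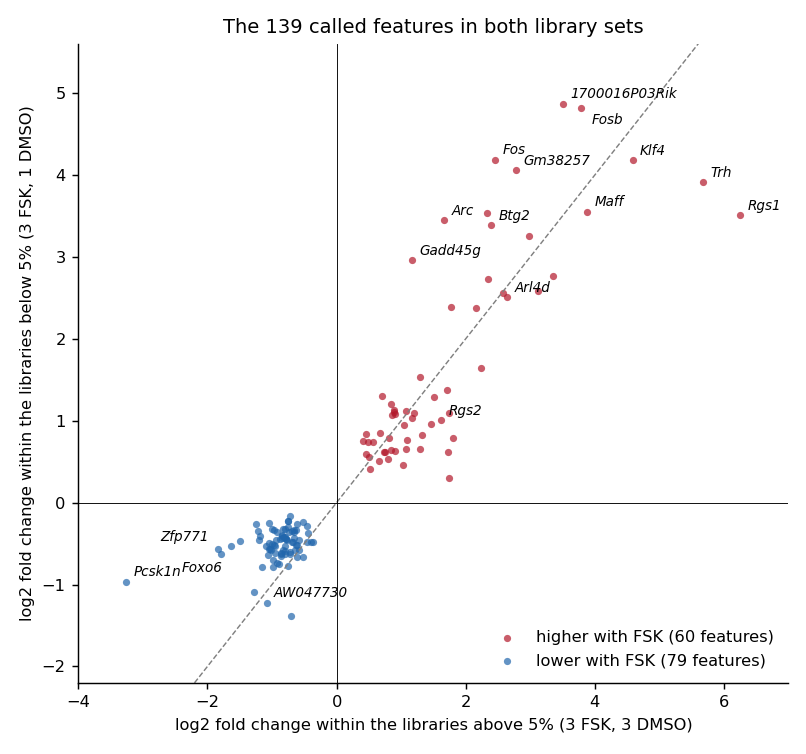
The 139 called features by log2 fold change (FSK against DMSO) within the high set (x axis, 3 FSK and 3 DMSO libraries) and within the low set (y axis, 3 FSK and 1 DMSO library), with the line of equal change dashed. All points lie in the quadrants of equal sign; Fos, Arc and Gadd45g lie above the line (larger in the low set), and Pcsk1n and Foxo6 lie farther from 0 in the high set.

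Promoters were available from RefSeq (build GRCm38.p6, 250 bases before to 50 after the start) for 43 of the 60 higher genes, 60 of the 79 lower genes and 12031 of the features tested. The full CRE, TGACGTCA, which reads the same on both strands, was found in 9 of the 43 higher genes (20.9%), in 1 of the 60 lower genes (1.67%, Fscn1) and in 3.42% of all. Its core TGACG, the shorter form of the site, searched on both strands and contained in the full CRE, was found in 32 of 43 (74.4%), 18 of 60 (30%) and 33.5%. The site of AP-1 (TGAGTCA or TGACTCA), the factor that Fos proteins form with Jun proteins, was in 0 of the 43 higher genes, in 5% of the lower ones and in 4.52% of all. The EGR site (GCGTGGGCG or GCGGGGGCG) was in 14.0%, 11.7% and 7.48%, and the serum response CArG box was in 1 higher gene, Egr2, in 3 lower genes and in 1.55% of all. These shares are descriptions of letters in a window, and no match there says only that. The 9 higher genes with the full CRE were Arl4d, Maff, Btg2, Ccnl1, Tinf2, Snhg15, Ppp1r15a, Gas5 and Clk4. With the set term, 6.89% of the 450 higher genes with a promoter held it, and without FSK 4 and FSK 5, 19.4% of 31.

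Windows of 3 genes with the full CRE and the largest rises among the 9 are shown first, then those of 3 early genes with the core alone, to set both kinds beside their values. Each is written 5′ to 3′ on the gene's strand (RefSeq, GRCm38.p6), with the CRE in capitals in the first 3 and the cores in capitals in the last 3.
Arl4d, chr11:101665291-101665590, plus strand: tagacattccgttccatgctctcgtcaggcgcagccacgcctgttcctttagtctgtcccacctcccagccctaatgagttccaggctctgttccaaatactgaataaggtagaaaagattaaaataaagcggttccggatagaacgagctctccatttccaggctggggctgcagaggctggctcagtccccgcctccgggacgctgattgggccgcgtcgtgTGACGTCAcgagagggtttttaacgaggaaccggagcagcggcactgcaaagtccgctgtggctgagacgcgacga
Maff, chr15:79347270-79347569, plus strand: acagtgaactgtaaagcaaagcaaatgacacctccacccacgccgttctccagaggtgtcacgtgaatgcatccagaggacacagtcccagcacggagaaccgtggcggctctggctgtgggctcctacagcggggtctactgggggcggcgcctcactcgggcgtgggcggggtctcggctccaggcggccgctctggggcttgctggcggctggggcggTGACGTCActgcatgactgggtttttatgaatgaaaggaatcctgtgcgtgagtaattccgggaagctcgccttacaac
Btg2, chr1:134079106-134079405, minus strand: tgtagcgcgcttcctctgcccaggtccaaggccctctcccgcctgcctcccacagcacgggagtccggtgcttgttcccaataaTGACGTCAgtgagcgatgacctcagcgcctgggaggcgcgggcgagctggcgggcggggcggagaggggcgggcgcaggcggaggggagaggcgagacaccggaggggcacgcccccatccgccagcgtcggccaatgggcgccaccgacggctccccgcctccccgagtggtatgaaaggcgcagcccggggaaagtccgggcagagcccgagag
Fos, chr12:85473640-85473939, plus strand: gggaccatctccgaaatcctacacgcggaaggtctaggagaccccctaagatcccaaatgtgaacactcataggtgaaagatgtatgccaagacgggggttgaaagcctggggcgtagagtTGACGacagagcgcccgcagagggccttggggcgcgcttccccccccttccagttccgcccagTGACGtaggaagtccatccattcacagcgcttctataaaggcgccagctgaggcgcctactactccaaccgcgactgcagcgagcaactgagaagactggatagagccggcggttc
Nr4a1, chr15:101266596-101266895, plus strand: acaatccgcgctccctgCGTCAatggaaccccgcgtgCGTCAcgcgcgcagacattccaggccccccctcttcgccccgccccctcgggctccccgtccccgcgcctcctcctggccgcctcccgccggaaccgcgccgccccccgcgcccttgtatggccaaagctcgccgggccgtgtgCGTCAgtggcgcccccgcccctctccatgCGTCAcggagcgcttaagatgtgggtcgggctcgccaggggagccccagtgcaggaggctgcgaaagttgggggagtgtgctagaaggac
Rgs2, chr1:144004100-144004399, minus strand: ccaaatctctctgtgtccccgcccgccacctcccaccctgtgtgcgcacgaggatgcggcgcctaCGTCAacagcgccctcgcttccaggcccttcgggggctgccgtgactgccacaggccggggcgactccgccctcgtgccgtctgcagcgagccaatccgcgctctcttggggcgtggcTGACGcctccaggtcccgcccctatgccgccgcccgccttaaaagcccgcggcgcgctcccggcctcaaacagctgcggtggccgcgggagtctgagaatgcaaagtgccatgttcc
The CRE begins 26 bases before the start of Arl4d, 29 before that of Maff (1 of 3 windows for this gene) and 166 before that of Btg2. Fos carries cores 129 and 66 bases before its start, Rgs2 185 and 67 bases before, and Nr4a1 holds 4, from 233 to 40 bases before.

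The higher genes were also short. Their span in RefSeq had a median of 7.96 kb (52 genes), against 12 kb for the lower genes (77) and 22.4 kb for all features with a span (15786). Genes over 50 kb made up 5.77% of the higher group, 11.7% of the lower and 28.0% of all. With the set term the higher group had a median of 25 kb, so short spans went with the 60 and not with the wider set of 593.

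**Figure D3:**
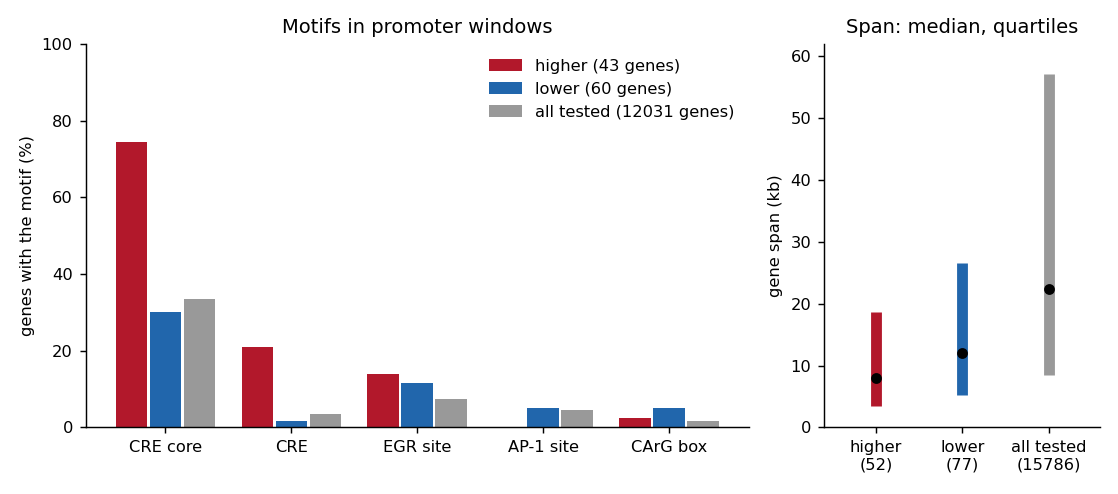
Left, share of genes (%) with each motif in the promoter window, for the higher genes (43), lower genes (60) and all tested genes (12031) with a window; right, gene span in kb, with the median as a point and the quartiles as a bar. The core was in 74.4% of higher genes against 33.5% of all, and median spans were 7.96 kb, 12 kb and 22.4 kb.

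Among transcription factors, the AP-1 subunits had 3 members called higher of 8 tested and none lower. Their median log2 fold change was 1.28, against 0.02 over all features. It was 1.19 in the high set and 1.56 in the low set, but 0.32 in FSK 6. Fosb (chr7:19302696-19310118), whose product pairs with Jun proteins, was at 3.09, 11.3, 2.98 and 3.98 CPM in DMSO 1 to 4 and at 89.4, 84.4, 89.3, 78.6, 96.0 and 77.0 CPM in FSK 1 to 6. The FSK values were close together whichever the library set, and none came near DMSO. The log2 fold change was 4 ± 0.45 (SE, adjusted p = 0.00067), with 3.78 in the high set, 4.82 in the low set and 3.66 in FSK 6.

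Fos itself was at 24.7, 164, 96.3 and 87.2 CPM in DMSO and at 458, 444, 450, 723, 796 and 393 CPM in FSK. Its DMSO level was therefore the more variable side, lowest in DMSO 1 and highest in DMSO 2, and that spread passed into the fold change of 2.55 ± 0.45 (adjusted p = 0.021): 2.46 in the high set, 4.19 in the low set and 1.76 in FSK 6. The same order of DMSO libraries, with DMSO 1 lowest and DMSO 2 highest, held for Arc, Nr4a1, Btg2, Egr1, Npas4 and Dusp1. Fosl2, a later AP-1 subunit, was at 28.9 to 35.0 CPM in DMSO and 46.4 to 76.8 CPM in FSK (0.87 ± 0.16, adjusted p = 0.021) and held in both sets. Atf3 and Junb missed the threshold over all libraries (adjusted p 0.062 and 0.088) and passed with the set term (0.0062 and 0.037) and with DESeq2 and limma-voom. Junb, chosen after its values were seen, differed within FSK: it was at 174 to 240 CPM in FSK 1 to 5 but at 31.0 CPM in FSK 6, below 3 of the 4 DMSO values of 24.6, 102, 51.8 and 39.4.

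Both called NR4A receptors, ligand-independent nuclear receptors, held. Nr4a1 was at 6.80, 34.7, 17.8 and 15.5 CPM in DMSO and at 85.2, 77.6, 75, 133, 137 and 70.6 CPM in FSK, a log2 fold change of 2.36 ± 0.41 (adjusted p = 0.017). Nr4a2 was at 3.18 to 6.18 CPM in DMSO and at 16.1 to 38.0 CPM in FSK (2.4 ± 0.33, adjusted p = 0.0051), and its changes of 2.58 in the high set and 2.56 in the low set were near equal. In both genes FSK 4 and FSK 5 were the highest libraries.

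Klf4, a zinc-finger factor best known from reprogramming, and Maff, a small Maf protein that dimerises with other bZIP factors, had 2 of the largest rises and were far higher in FSK 4 and FSK 5 than in the other FSK libraries. Klf4 was at 0.707, 2.34, 1.08 and 1.32 CPM in DMSO, at 11 to 14.3 CPM in FSK 1 to 3 and FSK 6, and at 54.9 and 48.3 CPM in FSK 4 and FSK 5. Its log2 fold change was 4.21 ± 0.64 over all libraries (adjusted p = 0.008) and 2.80 in FSK 6. Maff stood at 1.64, 5.39, 3.31 and 2.22 CPM in DMSO, 17.9 to 20.2 CPM in FSK 1 to 3, 66.1 and 67.5 CPM in FSK 4 and FSK 5, and 27 CPM in FSK 6 (3.52 ± 0.51, adjusted p = 0.0072). Both held, and in both the libraries with high microglia markers were the highest. The other FSK libraries also lay above all DMSO libraries, with microglia markers at 28 to 63 CPM beside 25 to 48 CPM in DMSO. The part of microglia in the rise was not tested.

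Egr2 rose from 3.36 to 8.98 CPM in DMSO to 17.1 to 26.9 CPM in FSK (1.81 ± 0.27, adjusted p = 0.0072), and it held. Its relative Egr1, more abundant, did not pass: it was at 23.0, 115, 76.6 and 75.5 CPM in DMSO and 63.8, 51.8, 61.2, 131, 177 and 107 CPM in FSK (0.44 ± 0.48, adjusted p = 0.63). The FSK values of the low set lay above DMSO 1 and below the other 3 DMSO libraries, so the pooled values overlapped although the change was positive in each set (0.63 and 1.36; adjusted p = 0.018 with the set term). Npas4, a factor induced by calcium entry, was at 7.29, 91.6, 22.4 and 21.6 CPM in DMSO and at 97.8 to 136 CPM in FSK (1.82 ± 0.52, adjusted p = 0.088; 0.026 with the set term). All 6 FSK libraries were above all DMSO libraries for Npas4, and its change was 1.4 in the high set and 4.19 in the low set.

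Of 27 other inducible transcription factors only Maff was called, and with the set term 7 were higher and 1 lower, the higher ones including Csrnp1, Hes1 and Nfkbiz. Of 16 clock genes none was called by edgeR with or without the set term, with 1 higher and 1 lower at an unadjusted p under 0.05; DESeq2 called 1 higher, and limma-voom 2 higher and 5 lower. Per1, whose promoter is a known CREB target, was at 18.8 to 32.1 CPM in DMSO and 22.9 to 42.5 CPM in FSK (0.14 ± 0.24, adjusted p = 0.78).

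**Figure D4:**
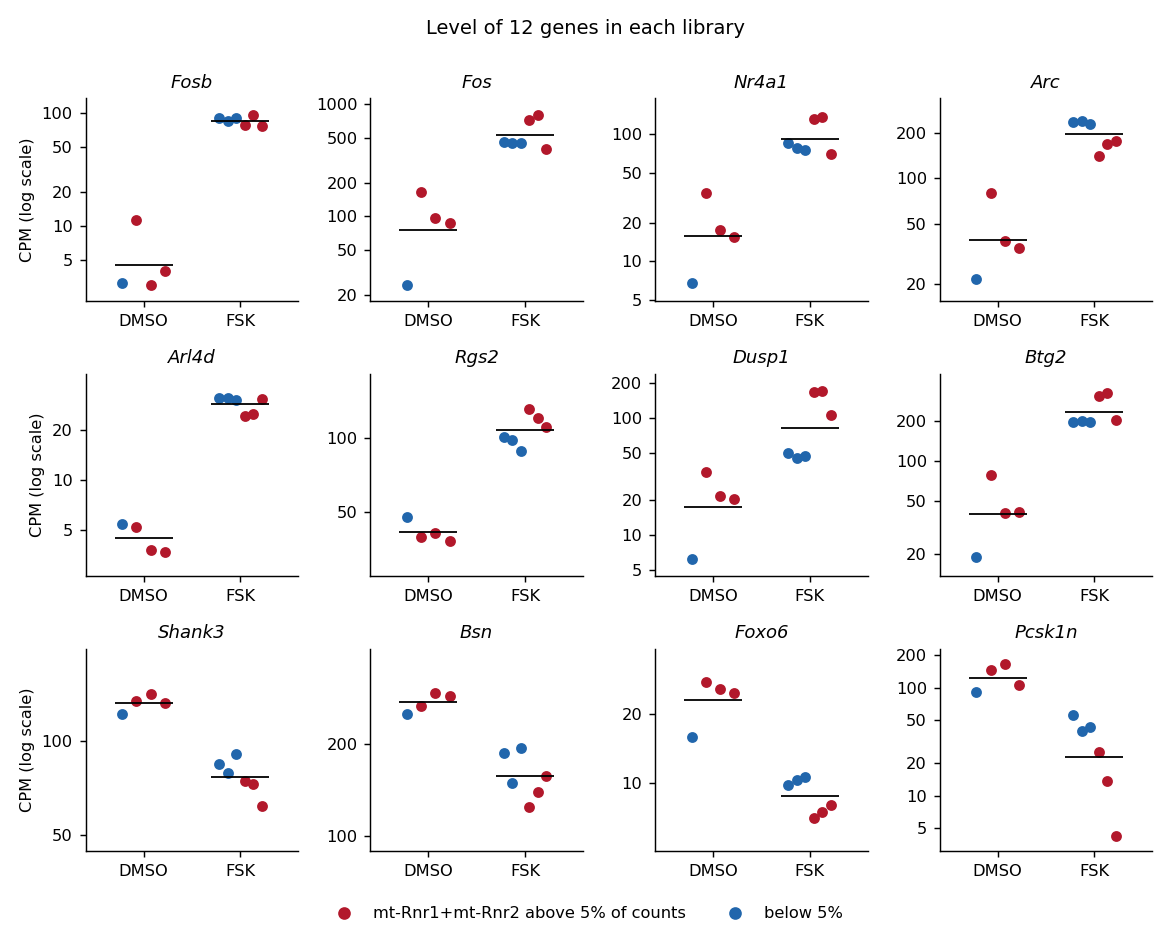
CPM (log scale) of 12 genes in each DMSO and FSK library, coloured by library set, with the geometric mean of each group as a line. Fosb (77.0 to 96.0 CPM) and Arl4d (24.1 to 31.0 CPM) are tight within FSK, Dusp1 differs in level between the sets in both groups, and Pcsk1n is lowest in FSK 6 (4.27 CPM).

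Among the regulators of the pathway itself, Arl4d and Rgs2 had the smallest adjusted p-values of all features (both 4.47e-05), and with any 1 library left out the largest adjusted p was 0.000672 for each. Arl4d, a small GTPase of the ADP-ribosylation factor family, was at 5.39, 5.20, 3.81 and 3.68 CPM in DMSO and at 30.9, 31.0, 30.0, 24.1, 24.9 and 30.6 CPM in FSK. Its log2 fold change of 2.66 ± 0.23 was 2.65 in the high set, 2.51 in the low set and 2.85 in FSK 6. Rgs2, which speeds GTP hydrolysis on G-protein alpha subunits, was at 47.7, 39.2, 41.0 and 38.0 CPM in DMSO and at 101, 98.3, 88.4, 131, 121 and 111 CPM in FSK (1.39 ± 0.12). Here the high set showed the larger change (1.62 against 1.01): its FSK libraries were the 3 highest, and DMSO 1 was the highest DMSO library.

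Sik1, a salt-inducible kinase that holds back the CREB coactivators, was at 11.4 to 16.2 CPM in DMSO, 26.0 to 28.7 CPM in FSK 1 to 3, 54.5 and 52.1 CPM in FSK 4 and FSK 5 and 22.5 CPM in FSK 6. All FSK libraries were above DMSO (1.32 ± 0.25, adjusted p = 0.025), but the change in FSK 6 was 0.57, under 50% of the whole, so it did not hold. In the edgeR fit over all libraries but FSK 4 and FSK 5, Sik1 still passed (0.89, adjusted p = 0.030). With the set term added there, Sik1 was at 0.999 (adjusted p = 0.013). It was the only one of 14 CREB, CRTC and SIK genes called; with the set term Crem, whose inner promoter makes a CREB-repressing isoform, also passed (0.53, adjusted p = 0.048), and Crtc1, a CREB coactivator, passed as lower (-0.51, adjusted p = 0.017). Crem was at 5.88 to 6.32 CPM in DMSO and 7.88 to 10.2 CPM in FSK, and Crtc1 at 42.2 to 48.2 CPM and 26.0 to 34.6 CPM, neither with any overlap between groups.

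The phosphatase Dusp1, which inactivates MAP kinases, did not pass over all libraries (2.25 ± 0.60, adjusted p = 0.078) and had 1 of the smallest adjusted p-values with the set term (2.68, adjusted p = 4.0e-05). It was at 6.14 CPM in DMSO 1 against 49.8, 45.8 and 47.6 in FSK 1 to 3, and 34.4, 21.4 and 20.3 in DMSO 2 to 4 against 166, 172 and 106 in FSK 4 to 6. The 2 sets lay at different levels and gave log2 fold changes of 2.55 and 2.96. Of the 25 adenylyl cyclase, protein kinase A and Epac genes none was called by edgeR over all libraries, with 1 higher and 5 lower at an unadjusted p under 0.05, and DESeq2 called 1. Of 18 phosphodiesterases and of 18 MAPK phosphatase and feedback genes none was called either, with 3 and 5 at an unadjusted p under 0.05; DESeq2 called 1 and 3, and limma-voom called 9, 5 and 7 genes of these lists. With the set term, Adcy7 was higher and Adcy9 lower, Pde7a was higher, and Dusp7 was lower. Adcy7 followed the microglia markers, at 0.572 to 1.22 CPM in DMSO, 1.04 to 1.58 CPM in FSK 1 to 3 and FSK 6, and 5.63 and 11 CPM in FSK 4 and FSK 5; the part of those cells in its call was not tested.

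Rasd1, a dexamethasone-inducible Ras-like GTPase, rose from 0.133 to 0.676 CPM in DMSO to 1.22 to 6.11 CPM in FSK (2.67 ± 0.60, adjusted p = 0.049). The rise rests on 60 counts in DMSO and 669 in FSK. Rgs1, another RGS protein and one that immune cells express, was also called (5.47 ± 1.22, adjusted p = 0.049), from 6 counts in all DMSO libraries and 527 in FSK, of which FSK 4 and FSK 5 gave 187 and 294. The ratio of pooled rates was 57.4, with a 95% counting interval (exact) of 26.2 to 157, and in FSK 6 Rgs1 was at 0.0999 CPM, beside a DMSO maximum of 0.0781 CPM. Its level thus moved with the microglia markers across FSK 4, FSK 5 and FSK 6, and their part in this call was not tested.

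Of 27 mRNA decay and growth-arrest genes 4 were called higher and none lower, and with the set term 10 were higher. The list's median was 0.43 over all libraries, 0.51 in the high set, 0.23 in the low set and 0.13 in FSK 6. Btg2, an antiproliferative factor that recruits the CCR4-NOT deadenylase, was at 18.9, 77.8, 40.8 and 41.0 CPM in DMSO and at 195, 201, 196, 311, 325 and 205 CPM in FSK (2.42 ± 0.38, adjusted p = 0.01). The 3 low-set FSK libraries lay close together, FSK 4 and FSK 5 were highest, and the change was 2.4 in the high set and 3.38 in the low set. Its relative Btg1 was at 17.9 to 27.7 CPM in DMSO and 40.6 to 49.6 CPM in FSK (0.87 ± 0.17, adjusted p = 0.034). Ifrd1 rose less (0.44 ± 0.10, adjusted p = 0.046), and both held. Noct, the nocturnin gene, was at 193, 236, 303 and 314 CPM in DMSO and 417, 393, 379, 579, 675 and 654 CPM in FSK (0.98 ± 0.22, adjusted p = 0.049), and held with 1.16, 1.04 and 1.20. Gadd45g, a growth-arrest gene, was called (1.70 ± 0.38, adjusted p = 0.049) but did not hold: FSK 6 was at 23.2 CPM, below the 28.4 CPM of DMSO 2, while the other FSK libraries were at 53.9 to 69.7 CPM.

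Splicing genes of the higher group were chosen for mention after their values were seen. Clk1, a kinase of SR splicing factors, was at 18.6, 18.1, 17 and 25.2 CPM in DMSO and at 45.8, 40.1, 35.3, 47.6, 46.1 and 33.7 CPM in FSK, a log2 fold change of 1.07 ± 0.17 (adjusted p = 0.01) that was 1.08 in the high set and 1.12 in the low set. Its relative Clk4 rose by 0.58 ± 0.13 and the cyclins Ccnl1 and Ccnl2, which work with splicing kinases, by 1.47 ± 0.30 and 0.47 ± 0.10. Hnrnpa2b1, a nuclear RNA-binding protein, was at 32.6 to 42.0 CPM in DMSO and 63.2 to 112 CPM in FSK (1.15 ± 0.17, adjusted p = 0.0072), and these 5 genes, Clk1, Clk4, Ccnl1, Ccnl2 and Hnrnpa2b1, all held. Other RNA-binding genes moved the other way: Sf3b4, Pcbp1 and Hnrnpa0 fell by 0.66, 0.53 and 0.48 on the log2 scale. Ppp1r15a, a stress-induced subunit that directs protein phosphatase to eIF2 alpha, rose from 24.6 to 29.9 CPM in DMSO to 47.1 to 83.5 CPM in FSK (1.09 ± 0.20, adjusted p = 0.025). Rpl22l1, a paralog of a ribosomal protein, was the only one of 83 ribosomal protein genes called (1.5 ± 0.26, adjusted p = 0.021), at 26.6, 11.2, 12.7 and 11.6 CPM in DMSO and 36.3 to 49.4 CPM in FSK.

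Of 22 synaptic and secreted early effectors 2 were called higher, Arc and Ptgs2. Arc, which builds capsid-like particles and promotes removal of AMPA receptors from synapses, was at 21.4, 80.0, 38.4 and 34.5 CPM in DMSO and at 235, 240, 228, 140, 169 and 177 CPM in FSK (2.18 ± 0.31, adjusted p = 0.007). Unlike Fos, Nr4a1 and Klf4, it was higher in FSK 1 to 3 than in FSK 4 to 6, and its change was 3.45 in the low set and 1.67 in the high set; the test of the difference between sets gave an adjusted p of 0.46. Ptgs2, the inducible cyclooxygenase, was at 2.83 to 3.82 CPM in DMSO and 7.08 to 20.5 CPM in FSK (1.93 ± 0.28, adjusted p = 0.0072) and held. Bdnf did not pass (0.14 ± 0.16, adjusted p = 0.67), with 28.5 to 41.9 CPM in DMSO and 27.5 to 50.0 CPM in FSK, and neither did Homer1 (0.37 ± 0.15, adjusted p = 0.18). The table counts whole genes, so isoforms of either were not seen apart.

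Of 20 tested neuropeptide and prohormone genes 1 rose and 1 fell. Trh, the precursor of thyrotropin-releasing hormone, was near 0 in DMSO, with 1, 1, 0 and 0 counts, and had 17, 16, 23, 37, 35 and 16 counts in FSK 1 to 6. The ratio of pooled rates was 47.0, with a 95% counting interval (exact) of 12.8 to 392, and every FSK library lay above every DMSO library; edgeR's fitted log2 fold change was 5.20 ± 0.65 (adjusted p = 0.0019). The level reached was low, 0.400 to 0.850 CPM. Pcsk1n, which encodes the proSAAS inhibitor of a prohormone convertase, had the largest fall of all 79 (-2.07 ± 0.45, adjusted p = 0.047). It was at 90.6, 147, 165 and 106 CPM in DMSO and at 56.1, 39.5, 43.8, 25.4, 13.8 and 4.27 CPM in FSK, so the fall was -0.96 in the low set, -3.26 in the high set and -5.03 in FSK 6.

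By the authors' deposited table, 15 of the 60 higher features and 2 of the 79 lower ones were not protein-coding, against 2628 of the 17173 tested. The RIKEN transcript 1700016P03Rik was at 0.398, 1.79, 0.773 and 0.949 CPM in DMSO and at 12.2, 12, 11, 10.6, 13.4 and 16.3 CPM in FSK (3.66 ± 0.45, adjusted p = 0.0015). It held with 3.51, 4.87 and 3.79, with no overlap between groups. Of 19 host genes of small nucleolar RNAs 3 were called higher: Snhg1, at 11.3 to 12.8 CPM in DMSO and 16.6 to 21.7 CPM in FSK (0.67 ± 0.11, adjusted p = 0.014), Gas5 (0.75 ± 0.15, adjusted p = 0.033) and Snhg15 (1.21 ± 0.25, adjusted p = 0.036). Snhg15 did not hold, with 0.30 in the low set. Like Noct, Gm29562 and the gene models Gm48161, Gm45322 and CT571246.1 were lowest in DMSO 1 and highest in FSK 5 or FSK 6. The order of the libraries between these ends differed in part. Gm48161, Gm45322 and CT571246.1 passed with the set term. Gm48161 was at 55.7, 70.8, 107 and 108 CPM in DMSO and at 141, 137, 137, 205, 288 and 268 CPM in FSK (1.38 with the set term, adjusted p = 0.0002). Salmon divides reads among similar transcripts, and whether these models share sequence with each other was not tested.

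Several genes of the synapse fell, by less than the early genes rose. Of 30 postsynaptic scaffold and enzyme genes 1 was called lower and none higher, and with the set term 7 were lower and none higher; the median was -0.43. Shank3 (chr15:89493013-89560261), a scaffold of excitatory synapses, was at 122, 134, 141 and 132 CPM in DMSO and at 84.1, 79.1, 90.9, 74.6, 72.9 and 62 CPM in FSK. No library overlapped, and the log2 fold change of -0.78 ± 0.12 (adjusted p = 0.01) was -0.96 in the high set, -0.53 in the low set and -1.13 in FSK 6. Dlgap3, a partner of Shank proteins, just missed (-0.92 ± 0.21, adjusted p = 0.051; 0.0093 with the set term).

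Of 29 glutamate receptor and auxiliary genes 2 were called lower, Cnih2 and Grin1, and 7 with the set term, none being higher. Cnih2, an auxiliary subunit of AMPA receptors, was at 191, 243, 238 and 217 CPM in DMSO and 122 to 151 CPM in FSK (-0.69 ± 0.13, adjusted p = 0.025). Grin1, the obligatory NMDA receptor subunit, was at 233 to 283 CPM in DMSO and 136 to 184 CPM in FSK (-0.64 ± 0.14, adjusted p = 0.0497). The main AMPA receptor subunit Gria1 was not called, at 638 to 745 CPM in DMSO and 445 to 828 CPM in FSK. The list's median turned from -0.33 in the high set to 0.19 in the low set, so its sign differed between the sets. Beside these falls, Slc17a7, the vesicular glutamate transporter that marks excitatory neurons, was at 667 to 894 CPM in DMSO and 426 to 644 CPM in FSK, with no overlap (-0.57 ± 0.15, adjusted p = 0.080; 0.047 with the set term). No excitatory marker of 13 was called by edgeR over all libraries (3 lower and none higher at an unadjusted p under 0.05; DESeq2 called 2 lower, limma-voom 6), and the part of these cells in the falls was not tested.

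On the presynaptic side, Bsn, the active zone scaffold bassoon, was at 251, 266, 292 and 286 CPM in DMSO and at 187, 150, 195, 125, 139 and 158 CPM in FSK (-0.79 ± 0.16, adjusted p = 0.034). It was the only one of 29 synaptic vesicle release genes called. The summed level of those 29 genes was 3559 and 3753 CPM in FSK 4 and FSK 5, 6055 to 6438 CPM in the other FSK libraries and 5496 to 6935 CPM in DMSO, so the list as a whole was low in FSK 4 and FSK 5 while Bsn was low in all 6. Dagla, which makes the endocannabinoid 2-arachidonoylglycerol, fell by 0.67 on the log2 scale (SE 0.13, adjusted p = 0.034), from 50.6 to 62.3 CPM in DMSO to 30.8 to 39.4 CPM in FSK. Rtn4rl2, a Nogo receptor, was at 12.9 to 17.6 CPM in DMSO and 4.52 to 9.76 CPM in FSK (-1.01 ± 0.19, adjusted p = 0.029) and did not hold, with -0.46 in the low set. Of 77 potassium and HCN channel genes and 16 GABA-A receptor genes none was called by edgeR over all libraries. At an unadjusted p under 0.05 were 15 and 2 of them, beside 3658 of all 17173 features. DESeq2 called 4 lower and 0 of them, beside 1276 of all features. With limma-voom 5 were higher and 12 lower of the first and 7 higher and 1 lower of the second, beside 6051 of all. With the set term 10 channel genes were lower and 1 higher, and none of the GABA-A genes passed.

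Of 13 FoxO and other forkhead factors 1 was called lower and none higher. This was Foxo6, enriched in hippocampus, which was at 15.8, 27.6, 25.8 and 24.6 CPM in DMSO and at 9.79, 10.3, 10.6, 7.06, 7.48 and 8 CPM in FSK (-1.41 ± 0.21, adjusted p = 0.0072). DMSO 1 was the lowest DMSO library, and the low-set change of -0.63 was under 50% of the whole, so Foxo6 did not hold, although no FSK library overlapped DMSO. Nr2f6, an orphan nuclear receptor, fell by 0.90 (SE 0.17, adjusted p = 0.025), and held with -0.98, -0.78 and -1.42. Brd2, a bromodomain protein that binds acetylated histones, was at 222 to 233 CPM in DMSO and 161 to 186 CPM in FSK (-0.41 ± 0.09, adjusted p = 0.045). The thyroid hormone receptor Thra, chosen after its values were seen, fell by 0.51 and held. Of 342 Zfp-numbered zinc-finger genes 1 was called higher and 4 lower, among them Zfp771, Zfp579 and Zfp319, while the list's median was positive at 0.23; with the set term the split was 39 higher and 21 lower. The noncoding AW047730 was at 13.1, 19.5, 13.2 and 13.7 CPM in DMSO and 4.41 to 9.47 CPM in FSK (-1.20 ± 0.24, adjusted p = 0.035), and held with -1.08, -1.22 and -1.65.

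**Figure D5:**
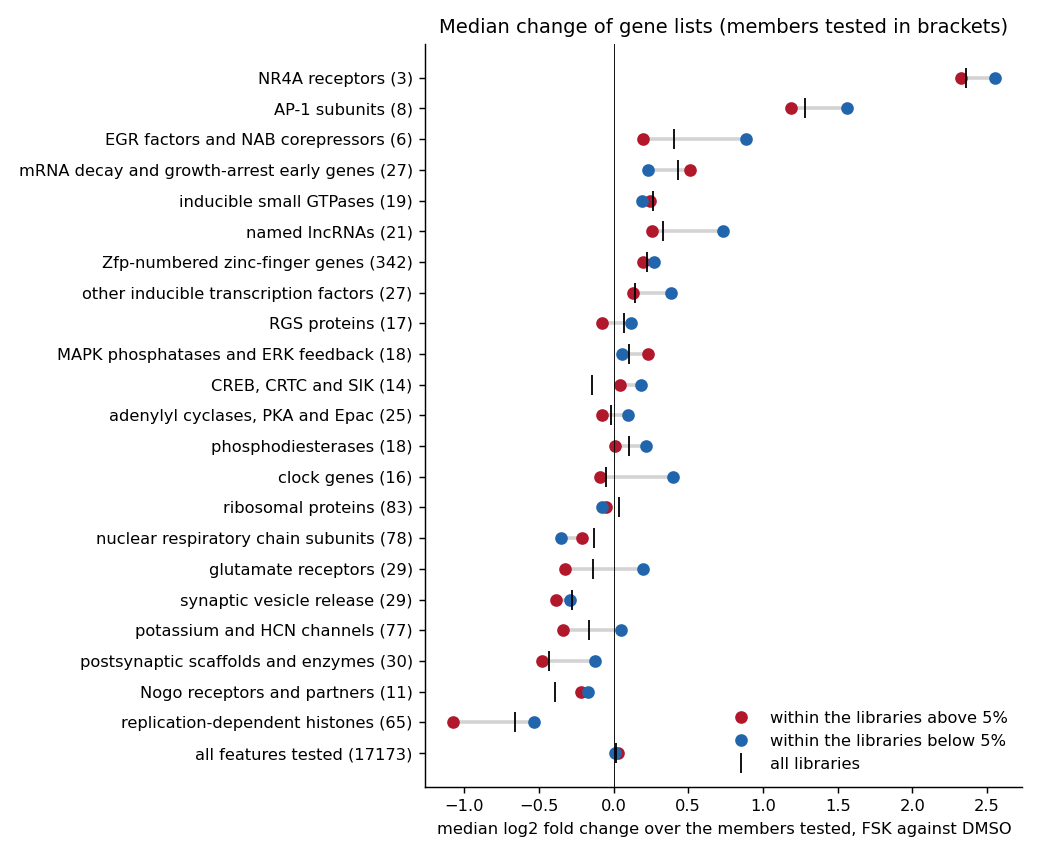
Median log2 fold change (FSK against DMSO) over the tested members of 22 gene lists and over all features, within the high set, within the low set and over all libraries (tick). NR4A and AP-1 medians are above 1 in both sets, postsynaptic and histone medians are below 0 in both, and the glutamate receptor and channel medians differ in sign between the sets.

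Replication-dependent histone genes, whose mRNAs lack a poly(A) tail, had none of 65 members called by edgeR over all libraries (1 higher and 23 lower at an unadjusted p under 0.05; DESeq2 called 1 higher and 5 lower, limma-voom 9 and 11) and 24 lower and 1 higher with the set term, with a median of -0.66. Their summed level was 2207, 2034, 1612 and 1378 CPM in DMSO and 1773, 1532, 1738, 1061, 1018 and 432 CPM in FSK. The groups overlapped through FSK 1 to 3, and FSK 6 was lowest. Of 78 nuclear respiratory chain genes none was called by edgeR over all libraries (1 higher and 7 lower at an unadjusted p under 0.05; DESeq2 called 3 lower, limma-voom 22 higher and 5 lower) and 17 were lower with the set term; their sum was 6437 to 9736 CPM in FSK and 7795 to 12430 CPM in DMSO, where DMSO 1 was the highest.

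Markers of other cell types differed between libraries. None of the 16 microglia markers was called by edgeR over all libraries (15 higher at an unadjusted p under 0.05; DESeq2 called 12 higher and limma-voom 9), and 5 were higher with the set term, with a median log2 fold change of 3.27 over all libraries, 4.44 in the high set, 0.45 in the low set and -0.17 in FSK 6. The defining marker C1qb was at 15.6 and 35.1 CPM in FSK 4 and FSK 5, at 2.66 to 4.25 CPM in FSK 1 to 3, at 0.550 CPM in FSK 6 and at 0.440 to 1.64 CPM in DMSO. Of 14 oligodendrocyte lineage markers 5 were higher and 1, Olig1, lower with the set term. Their median log2 fold change was 0.68 over all libraries, 0.74 in the high set, 2.14 in the low set and -0.49 in FSK 6. Their summed level was 544.6 to 844 CPM in DMSO and 847 to 1504 CPM in FSK 1 to 5, and 583 CPM in FSK 6, so all FSK libraries but FSK 6 were above DMSO. Of 12 cycling cell markers none was called by edgeR over all libraries (6 higher at an unadjusted p under 0.05; DESeq2 called 2 higher and limma-voom 11) and 1 was higher with the set term, with a median log2 fold change of 0.84, 0.68 in the high set and 0.31 in the low set. Their sum was 239.5 CPM in DMSO 1 and 119 to 145 CPM in DMSO 2 to 4, 273 to 307 CPM in FSK 1 to 3, 232 and 328 CPM in FSK 4 and FSK 5, and 138 CPM in FSK 6. The part of these cells in the other changes was not tested. Microglia markers were at the DMSO level in FSK 6, but holding requires a change in FSK 6 by definition, so it is no test of their part.

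In the authors' deposited table for the same comparison, 1438 features of 17958 with an adjusted p were under 0.05, 871 higher and 567 lower. All 139 features were among them, with the same sign, as were 786 of the 1622 called with the set term. For Arl4d the authors' deposited table gives a log2 fold change of 2.66, for Fos 2.54 and for Shank3 -0.79, against 2.66, 2.55 and -0.78 here.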

How the data were processed

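In 16 libraries of neurons treated with DMSO (4), DHPG (6) or FSK (6), RNA was sequenced as total RNA from a stranded kit, per the labels' protocols. The tools were Salmon (build GRCm38) for quantification and DESeq for the comparison, per the submitters' processing notes; no version of either is given in the sources used here. The deposited table holds the authors' estimated counts per gene, of which 26.6% were not whole; they were rounded. The control columns of that table were taken as the DMSO libraries of the same number. The authors' deposited comparison gives log2 fold changes and adjusted p-values, from which only counts of calls, gene types and 3 fold changes are printed; the mean signal of normalized counts that the authors deposited beside them was not used.

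The main test was edgeR 4.0.16 (R 4.3.3): TMM factors, filterByExpr with a minimum count of 10, robust quasi-likelihood fit with 1 mean for each of the 3 groups, contrast FSK minus DMSO, Benjamini-Hochberg adjustment over all 17173 features. SE is the log2 fold change divided by the root of F. CPM use TMM-scaled totals. Library sets were split at 5% of counts in mt-Rnr1 plus mt-Rnr2. Alternatives were a set term, a fit with 1 mean for each group and set, DESeq2 1.42.0 and limma-voom with quality weights (limma 3.58.1). Every limma-voom result here comes from that fit, which gives libraries unequal weight. Other scalings and filters, a replicate block and leaving out libraries were further alternatives. Totals of 21325909 to 59958357 counts set the depth, and intervals of pooled rates cover counting error only. Whether replicate numbers pair the libraries is not known. Deviations from the group mean of DMSO and FSK libraries of the same number, 1 to 4, correlated at 0.394, -0.405, -0.205 and 0.0609. The library set was not removed first, and numbers 2 and 3 join libraries of different sets, so these values cannot settle it.

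Named genes were the 15 largest positive and negative changes among called features of average log2 CPM 0 or more, up to 4 called members of each list by p (for lists under 30 members also up to 4 called with the set term), the 15 of smallest p that also passed without FSK 4 and FSK 5, up to 8 that differ between sets, the 10 of smallest p in each direction called only with the set term, and 12 early genes whatever their result; some were left out for length, and genes outside the rule were chosen after their values were seen. These include Clk1, Clk4, Ccnl1, Ccnl2, Hnrnpa2b1, Ppp1r15a, Tinf2, Junb, Sf3b4, Pcbp1, Hnrnpa0, Dlgap3, Gria1, Thra and Fscn1. The genes and lists were chosen with earlier results of these data known. Promoters and spans come from RefSeq, GRCm38.p6.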

Additional observations from a re-analysis of the deposited data

Results flagged for a closer look

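In groups of 4 or 6 libraries, 1 value was flagged as apart from the rest of its group in 8 of the 162 groups tested over 81 genes. Chance alone gives about 1 in 20, which is near this count, so the 8 values below are descriptions only. FSK 6 was the lowest FSK library for Junb (31.0 CPM, others 174 to 240) and Gadd45g (23.2 CPM, others 53.9 to 69.7), and FSK 4 was the lowest for Npas4 (97.8 CPM, others 126 to 136). FSK 5 was the highest for Egr2 (26.9 CPM, others 17.1 to 19.2). DMSO 2 was the highest DMSO library for Fosb (11.3 CPM, others 2.98 to 3.98) and AW047730 (19.5 CPM, others 13.1 to 13.7). DMSO 1 was the highest for Rpl22l1 (26.6 CPM, others 11.2 to 12.7) and the lowest for Pde7a (16.2 CPM, others 19.8 to 20.5).

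The change with FSK differed between the high and low sets for 3 features in the edgeR test of that difference (adjusted p = 0.039 each; 1259 features at an unadjusted p under 0.05). All 3 are processed pseudogenes with libraries at 0, so the fitted differences depend on the prior count and are no fold: 8.21 for Gm12112, -8.70 for Gm19680 and -9.57 for Trmt112-ps2. Gm12112 was at 0 in DMSO 2 to 4, at 2.74 CPM in DMSO 1 and at 0.650 to 3.01 CPM in FSK. Gm19680 was at 0 in DMSO 1 and at 1.11 to 2.37 CPM in the other 9 libraries. Trmt112-ps2 was at 0 in FSK 4 to 6 and at 1.32 to 3.10 CPM in the other 7.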

How the results depend on the processing

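The 139 calls (60 higher and 79 lower) were 146, 121 and 134 with DESeq2 size factors, a minimum count of 5 and no mitochondrial ribosomal RNA. The count was 62 with library totals (49 higher and 13 lower), 66 with no filter on low counts (39 and 27) and 83 with only the 10 FSK and DMSO libraries (39 and 44). It was 1276 with DESeq2 (657 and 619), 6051 with limma-voom and quality weights (2887 and 3164) and 1622 with the set term (593 and 1029). Within the high set it was 2024 (738 and 1286), without FSK 4 and FSK 5 there 890 (78 and 812), and within the low set 8 (8 and 0). Without FSK 4 and FSK 5 it was 38 (26 and 12), and 56 (45 and 11) with the set term; fewer libraries were fitted. The replicate block gave 531 (290 and 241), but whether the numbers pair the libraries is not known. Without removal of the library set, 2 of 8 libraries correlated best with their own number. Leaving out 1 library gave 12 to 427 calls, 11 to 165 higher and 1 to 262 lower. By library the count was 60, 31, 12 and 47 without DMSO 1 to 4, 77, 68, 148, 47, 35 and 121 without FSK 1 to 6, and 224, 47, 103, 96, 61 and 427 without DHPG 1 to 6. The 3 features that differ between sets became 9 with library totals, 108 without FSK 4 and FSK 5 and 0 to 368 with 1 library left out, the 368 without FSK 6; without DMSO 1 the low set has no control. Except where noted by construction, the cause was not tested.

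All 55 called genes named in the text kept their sign under every alternative in which they were tested; 35 passed with library totals, 34 with only the 10 libraries and 11 without DMSO 3. Sign changes were seen only in genes not called: C1qb (-0.19), Junb (-1.05), Gm19680 (-0.33), Per1 (-0.30) and Gria1 (0.25) for FSK 6 within the high set, Gm19680 (-0.0765) within the high set, Egr1 (-0.036) and Per1 (-0.12) without FSK 4 and FSK 5, Gria1 (0.047) without them with the set term, and Egr1 (-0.26) and Per1 (-0.20) with limma-voom. With 1 library left out, Gm19680 ranged from -0.085 to 0.83 and Per1 from -0.0047 to 0.24, both lowest without DMSO 1. List medians and member counts moved in 752 of 4464 recalculations.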
